A study of Homo sapiens with 6 samples.

Results

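The genes described here act on DNA damaged by ultraviolet light, and were chosen by name for that role, with earlier results of these data known. There are 10 of them among 18701 genes with a value on the arrays: DDB1, DDB2 and XPC for damage recognition, XPA, ERCC1 and ERCC2 for verification and excision, and the translesion polymerase genes POLH, POLK, POLI and REV3L. Their transcript levels were measured in HT29-tsp53, a human colorectal adenocarcinoma line that carries a mouse p53 transgene with the temperature-sensitive V135A change. In the p53 off group the cultures stayed at the restrictive temperature of 38 °C, where the protein is inactive. In the p53 on group they spent 16 h at 32 °C, where it is active, and in the recovery group they spent 16 h at 32 °C and then 6 h back at the restrictive temperature. Each group had 2 Affymetrix Human Gene 1.0 ST arrays, 6 in all, and the labels number 2 experiments with every group present in each. Some fields name 37 °C in place of 38 °C, and one field of the recovery samples names 32 °C for the last 6 h, so the groups follow the sample titles.

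All 3 groups carry the transgene, and no culture without it was taken to 32 °C. A change caused by p53 and one caused by the temperature therefore cannot be told apart here. CIRBP, a cold-inducible RNA-binding protein gene, had log2 signals of 8.86 and 8.37 in p53 on, against 7.59 and 7.45 in p53 off. RBM3, also cold-inducible, had 7.91 and 6.99 in p53 on, against 6.81 and 5.98 in p53 off. In recovery CIRBP stood at 7.69 and 7.72 and RBM3 at 7.43 and 6.72. The labels give neither the promoter of the transgene nor whether the line is 1 clone. Nothing in them says that the 2 experiments were separate thaws or passages, so p-values measure the spread between these arrays, which may be technical. In RNA from whole cultures, fewer cells that express a gene and less RNA per cell cannot be told apart either.

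Ultraviolet light joins neighbouring pyrimidines in DNA into bulky lesions. In global genome nucleotide excision repair, the DDB1-DDB2 complex and XPC find the lesion, the TFIIH helicase subunit encoded by ERCC2 (XPD) opens the DNA, XPA verifies the damage, and the ERCC1-XPF nuclease makes the cut on the 5′ side. Lesions that remain when a replication fork arrives can be bypassed by translesion polymerases, which copy damaged templates with lower accuracy than the replicative enzymes. DDB2, XPC and POLH are known from other work as p53 target genes in human cells.

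To show where a p53 site lies near one of these genes, the RefSeq promoter windows of all 10 were searched for the p53 decamer consensus, the 10-base unit that occurs as a pair in p53 response elements and reads alike on both strands. A window runs from 250 bases before an annotated transcript start to 50 bases after it, and the 10 genes had 14 windows (GRCh38.p14). Only 1 of them, at the downstream start of DDB2, held the decamer. It held a pair of decamers separated by 1 base, the first beginning 5 bases past the start, inside the gene. Of all 35116 windows in the table, 6.63% held at least 1 decamer, and 10 windows, or 0.0285%, held a pair of decamers at most 13 bases apart. Of the 10 genes with such a pair, 3 were tested in the comparison of p53 on with p53 off described below. DDB2 was called higher there, and DYNC2H1 (log2 difference -0.62) and MCC (0.47) were not called. The DDB2 site is printed with its decamers in capitals, on the plus strand at chr11:47214975-47215004.
DDB2 site: gtttGAACAAGCCCtGGGCATGTTTggcgg

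The 250 bases before that start, and those before the starts of XPC and POLH, are printed because these 3 genes rose in p53 on. None of the 3 stretches held a decamer, which says only that these letters are not in these windows.
DDB2, chr11:47214724-47214973, plus strand: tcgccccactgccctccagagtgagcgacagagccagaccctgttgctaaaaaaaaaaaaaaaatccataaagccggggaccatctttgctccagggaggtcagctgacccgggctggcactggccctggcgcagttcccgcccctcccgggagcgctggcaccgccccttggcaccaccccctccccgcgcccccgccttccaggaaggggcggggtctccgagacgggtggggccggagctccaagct
XPC, chr3:14178602-14178851, minus strand: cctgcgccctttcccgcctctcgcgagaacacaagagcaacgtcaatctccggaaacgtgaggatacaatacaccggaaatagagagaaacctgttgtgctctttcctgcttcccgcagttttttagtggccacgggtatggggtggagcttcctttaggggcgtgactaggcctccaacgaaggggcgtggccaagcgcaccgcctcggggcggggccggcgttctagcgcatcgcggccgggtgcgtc
POLH, chr6:43575935-43576184, plus strand: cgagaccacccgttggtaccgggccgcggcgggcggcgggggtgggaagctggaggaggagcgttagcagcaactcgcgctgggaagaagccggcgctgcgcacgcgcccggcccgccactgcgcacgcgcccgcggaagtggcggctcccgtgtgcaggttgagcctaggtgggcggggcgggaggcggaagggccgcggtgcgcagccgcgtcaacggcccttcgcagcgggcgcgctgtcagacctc

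The values are log2 signals, and a gene's value on an array is the median over its own probe sets, each of which reports on 1 exon or part of one. The 10 genes had between 9 (XPA) and 39 (REV3L) probe sets, and all 10 passed the filter that left out the dimmest 25% of genes (under log2 3.62). Groups were compared with limma over the 14026 genes that remained. A gene was called at a Benjamini-Hochberg adjusted p under 0.05, and errors are standard errors with n = 2 arrays per group. Blocked values come from the same fit with experiment added as a replicate block, which leaves each difference as it is and changes its error. Setting p53 on against p53 off, and recovery against p53 on, uses the same p53 on arrays, so a deviation of those arrays enters both differences with opposite sign.

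The known p53 targets CDKN1A, MDM2 and GDF15 followed the labels, with log2 differences between p53 on and p53 off of 3.04 (GDF15) to 3.52 (MDM2). Of 10 epithelial markers, 9 passed the filter and CDH17 did not. Of 6 fibroblast markers, COL1A1 (5.26 to 5.89 over the 6 arrays), COL1A2, COL3A1 and THY1 passed the filter while DCN and LUM did not, and none was called. Of 4 endothelial markers PECAM1 passed (3.37 to 3.98) and was not called. The leukocyte genes CD14, CD68 and LAPTM5 passed, and PTPRC and CD3E did not. Within the leukocyte list of 6 genes, 5 with probe sets, the summed log2 signal was 19.1 to 20.1 in p53 off, 22.8 to 24.0 in p53 on and 22.8 to 23.4 in recovery. LAPTM5 was the only one called in p53 on against p53 off (3.16 ± 0.27, adjusted p = 0.00537), and the part of these markers in the results was not tested.

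The first comparison asked what 16 h with active p53 did to these transcripts. DDB2, XPC and POLH rose, by 5.87-fold, 2.95-fold and 4.10-fold. They are 2 of the 3 damage recognition genes and 1 of the 4 translesion polymerase genes. The other 7 of the 10 genes were not called, among them the recognition gene DDB1. Of these 7, XPA (1.30) and POLK (-1.21) were called with the replicate block, so the calls do not separate the repair steps. In all, 3 of 10 genes were called higher, where 0.898% of all genes tested were, and 0 of 10 were called lower in limma, where 0.585% were (1.48% in either direction). At an unadjusted p under 0.05, 4 were higher and 1 was lower, where 7.33% of all genes were higher and 8.1% lower. With the replicate block 4 were called higher (5.18% of all genes) and 1 lower (6.28% of all genes, and 11.5% in either direction). The 10 genes were chosen with earlier results of these data known. Counts set beside the shares of all genes, here and below, are therefore no test of the set.

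DDB2, on chromosome 11 from 47214454 to 47239217 (RefSeq, GRCh38.p14, as for the genes below), encodes the subunit of the damage-binding complex that contacts the lesion. Its log2 signals were 6.27 and 6.28 in p53 off, 8.92 and 8.74 in p53 on, and 6.78 and 6.72 in recovery. Both p53 on arrays stood far above the other 4, which lay between 6.27 and 6.78. The difference between p53 on and p53 off was 2.55 ± 0.19 (adjusted p = 0.00398), with 2.64 in experiment 1 and 2.46 in experiment 2. All 12 DDB2 probe sets were higher in p53 on in both experiments, against 29.1% of the probe sets of all genes, and 11 of them differed by between 1.40 and 2.84. The remaining probe set differed by 0.34.

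XPC, on chromosome 3 from 14145147 to 14178601, is the gene of the sensor that feels for distorted base pairing, and it rose less evenly. It stood at 5.16 and 5.36 in p53 off, 7.17 and 6.47 in p53 on, and 5.27 and 5.46 in recovery. The lower p53 on array, of experiment 2, was still more than 1 log2 unit above the highest of the other 4. The difference was 1.56 ± 0.27 (adjusted p = 0.0496), or 2.01 in experiment 1 and 1.11 in experiment 2, and 15 of 16 probe sets were higher in both. DDB1, the gene of the adaptor that joins DDB2 to the CUL4 ubiquitin ligase, differed far less. It had log2 signals of 9.83 and 9.72 in p53 on, against 9.72 and 9.48 in p53 off, and the difference was 0.18 with a 95% interval of -0.30 to 0.66 (adjusted p = 0.764). Of its 30 probe sets, 22 were higher in p53 on in both experiments, against 29.1% of the probe sets of all genes. Probe sets of a gene read the same arrays and are not replicates.

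Among the genes of verification and excision, XPA stood apart from the others in size of difference. XPA, on chromosome 9 from 97654398 to 97697340, encodes the zinc-finger protein that verifies the lesion and brings in the nuclease. It had 6.30 and 5.90 in p53 off, 7.76 and 7.03 in p53 on, and 6.26 and 6.37 in recovery. The p53 on arrays did not overlap the others, but arrays of a group lay up to 0.72 apart. The difference of 1.30 ± 0.29 was not called (adjusted p = 0.0934), and was called with the replicate block (adjusted p = 0.00832). It was 1.46 in experiment 1 and 1.13 in experiment 2, and 8 of 9 probe sets were higher in both.

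ERCC1 encodes the partner of the XPF nuclease. Its signals were 7.86 and 7.62 in p53 on, against 7.78 and 7.59 in p53 off, so the groups overlapped. The interval of that difference ran from -0.42 to 0.54. ERCC2, the gene of the XPD helicase, stood at 6.90 and 6.74 in p53 on, against 6.83 and 6.57 in p53 off, with an interval of -0.37 to 0.62. Differences within those bounds could not be told from none with these arrays. ERCC1 and ERCC2 also have 2 probe sets each that are shared with another gene, which were left out.

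POLH, on chromosome 6 from 43576185 to 43620523, encodes polymerase eta, which copies thymine dimers accurately and is lost in the variant form of xeroderma pigmentosum. Its log2 signals were 6.35 and 6.26 in p53 off, 8.25 and 8.42 in p53 on, and 6.25 and 5.90 in recovery. The p53 on arrays lay about 2 log2 units above all others. The difference was 2.03 ± 0.21 (adjusted p = 0.0126), at 1.91 in experiment 1 and 2.16 in experiment 2, and all 15 probe sets were higher in both experiments, by 1.43 to 2.61. No other polymerase of the group had its probe sets all on one side.

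POLK, on chromosome 5 from 75510774 to 75609991, is the gene of polymerase kappa, which extends past bulky adducts, and it differed in the opposite direction. It stood at 6.01 and 6.30 in p53 off, 5.24 and 4.64 in p53 on, and 6.38 and 6.10 in recovery, so that both p53 on arrays lay below all others. The difference of -1.21 ± 0.27 was not called (adjusted p = 0.0905) and was called with the replicate block (adjusted p = 0.0126), at -0.76 in experiment 1 and -1.65 in experiment 2. None of its 21 probe sets was higher in p53 on in both experiments and 14 were lower in both, against 29.6% of the probe sets of all genes. Its size depends on how probe sets are combined: it was -0.75 with their mean and, in a setting chosen after seeing the data, -0.65 with a median polish. The direction was the same in both.

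POLI and REV3L were not called with or without the block. POLI encodes polymerase iota, a close relative of polymerase eta, and had 5.47 and 4.80 in p53 on, against 5.71 and 5.26 in p53 off. Its groups overlapped, and its arrays differed more by experiment than by group, those of experiment 2 being 0.45 to 0.94 lower. REV3L encodes the catalytic subunit of polymerase zeta, which extends from the bases that other translesion enzymes insert. It had 6.62 and 6.23 in p53 on, against 5.79 and 6.11 in p53 off, a difference of 0.47 with a 95% interval of -0.12 to 1.06 (adjusted p = 0.442). The groups did not overlap, but the difference was 0.83 in experiment 1 and 0.12 in experiment 2.

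**Figure D1:**
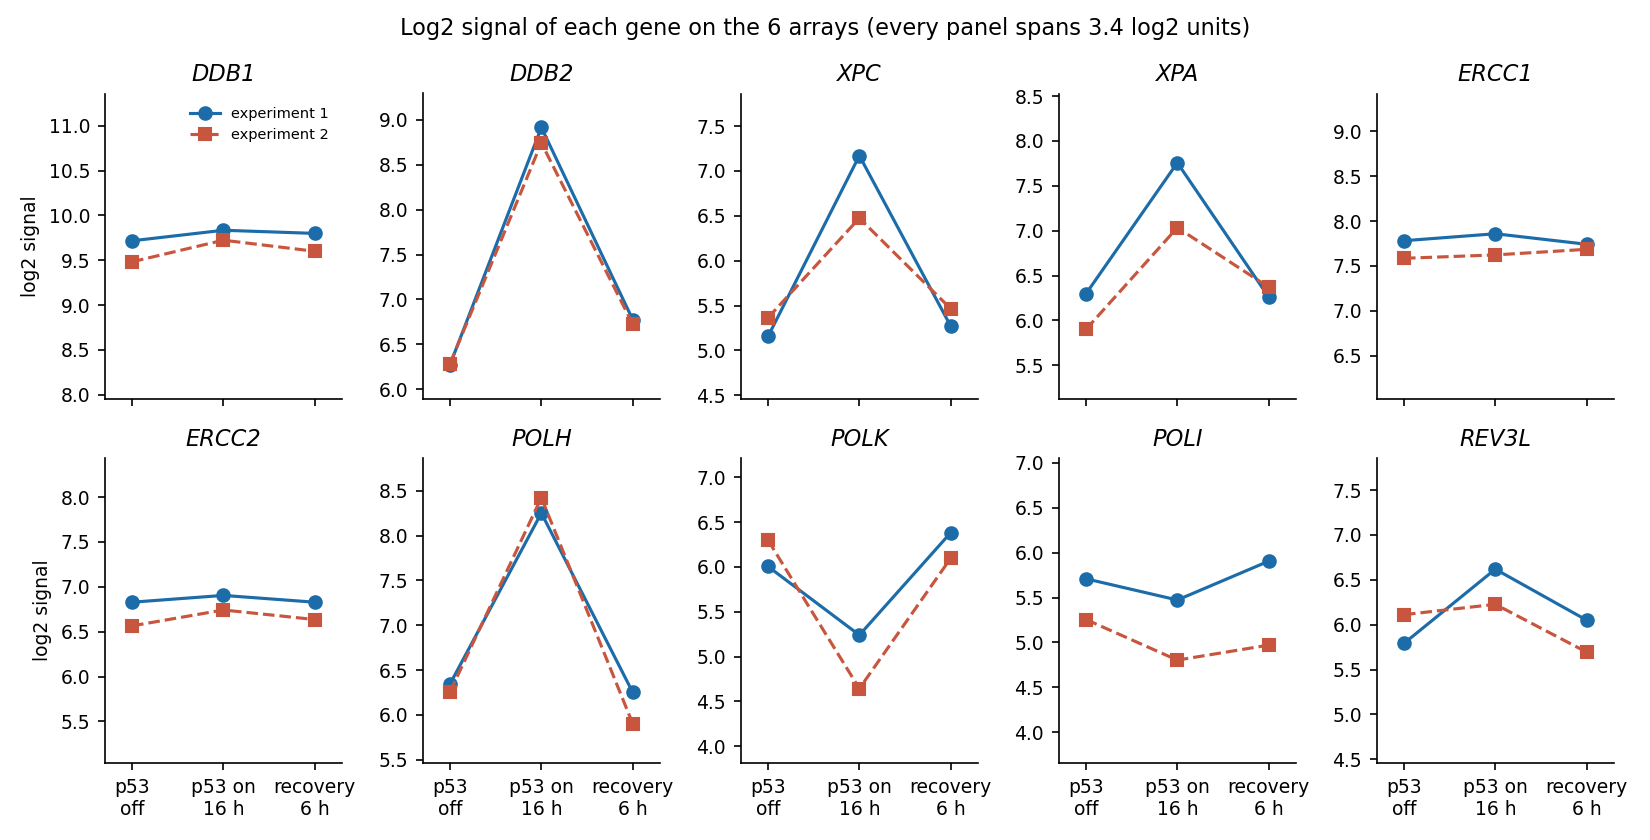
Log2 signal of each of the 10 genes (vertical axis, every panel 3.4 log2 units high) with p53 off, after 16 h with p53 on, and after 6 h of recovery, as points for single arrays joined by experiment (solid line and circles for experiment 1, dashed line and squares for experiment 2). DDB2, XPC, XPA and POLH peak in p53 on in both experiments, POLK is lowest there in both, and DDB1, ERCC1 and ERCC2 run nearly flat.

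Across the 10 genes, 6 had p53 on arrays wholly above the p53 off arrays, against 22.6% of all genes, and 1 (POLK) wholly below, against 20.6%. The gap was narrow for DDB1 (9.724 in p53 on against 9.717 in p53 off) and REV3L (6.23 against 6.11). Neither was called with or without the block. All 10 differences had the same sign in both experiments, though those of ERCC1 were only 0.08 and 0.04. The share of all genes with the same sign in both was not counted. Of the 10 differences, 8 were positive, as were 7294 of those of the 14026 genes tested. The median of the 10 was 0.33, and that of all genes was 0.02. The call for XPC was the least secure, since it was lost with no filter on dim genes (adjusted p = 0.0634), with brighter probe sets alone (adjusted p = 0.0555) and in a fit of the 2 groups alone (adjusted p = 0.0997), and it held in 0 of 6 fits that left out 1 array (adjusted p up to 0.283). DDB2 lost its call only without either p53 off array (adjusted p up to 0.0676), and POLH without any 1 of the p53 off or p53 on arrays (adjusted p up to 0.145).

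**Figure D2:**
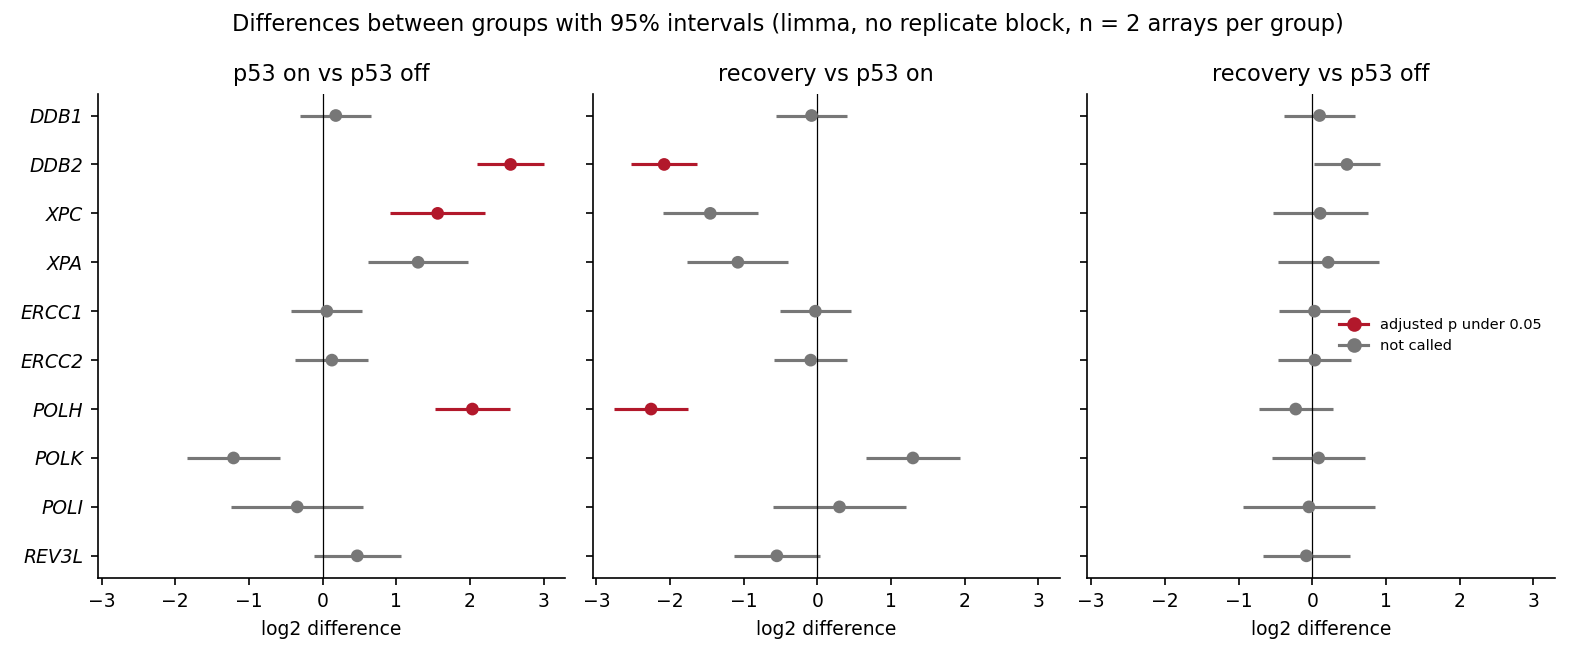
Log2 difference of each gene (horizontal axis) in the 3 comparisons, with 95% intervals from limma without the block and n = 2 arrays per group; red marks an adjusted p under 0.05. DDB2, XPC and POLH are called in p53 on against p53 off, DDB2 and POLH in recovery against p53 on, and no gene in recovery against p53 off.

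The probe sets show how uniform each difference was along the transcript. The single probe sets ran from 1.43 to 2.61 for POLH, from 0.34 to 2.84 for DDB2, from 0.26 to 2.27 for XPC, from 0.32 to 1.88 for XPA and from -2.61 to 0.12 for POLK. The median probe set of XPA differed by 0.83 and that of POLK by -0.62, so both were closer to 0 than the gene values. REV3L had 18 of 39 probe sets higher in both experiments and 1 lower, against 29.1% and 29.6% of the probe sets of all genes. For ERCC1, 5 of 12 were higher in both and 4 lower, and for ERCC2, 11 of 25 were higher and 4 lower.

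**Figure D3:**
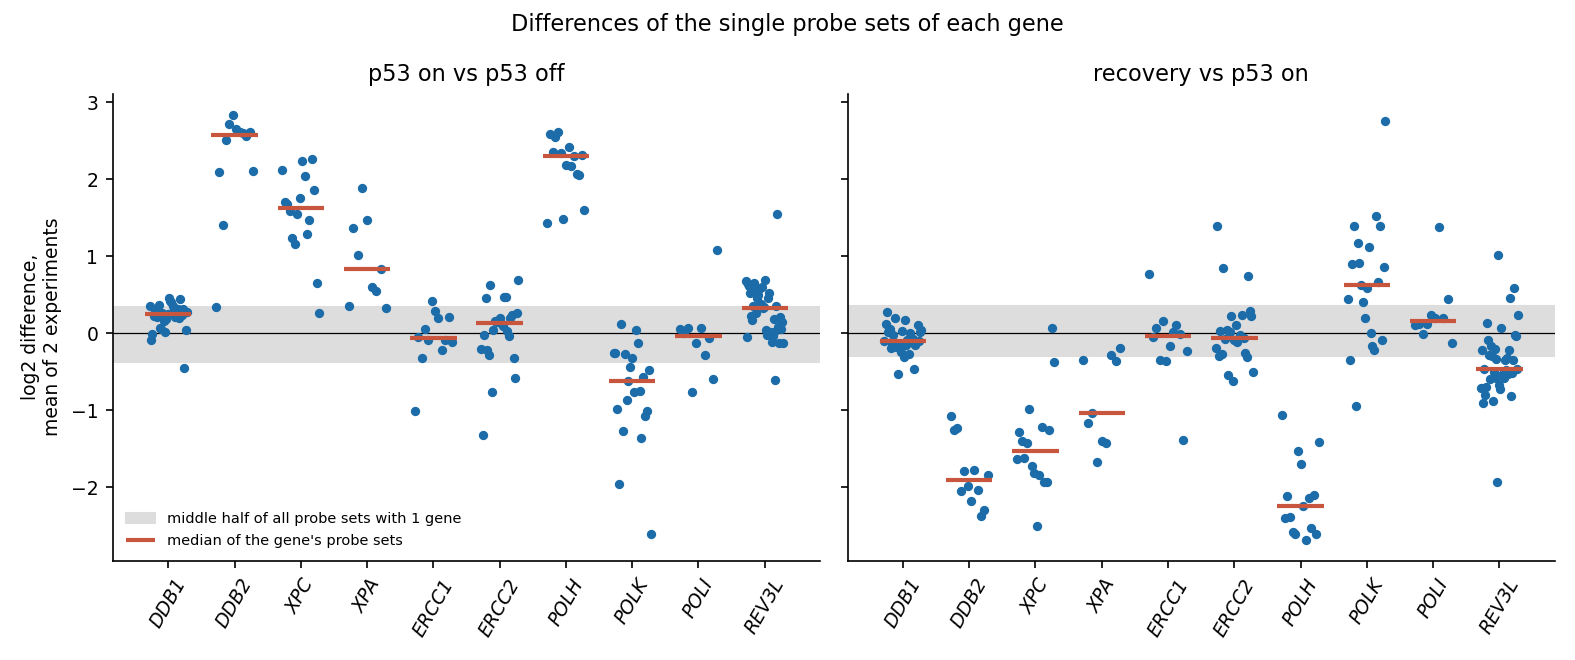
Log2 difference of every probe set of the 10 genes (points, mean of the 2 experiments), with the median of each gene's probe sets as a bar and the interquartile range of all single-gene probe sets as a grey band. Points for DDB2, XPC and POLH lie above the band in p53 on against p53 off and below it in recovery against p53 on with few exceptions, while those for ERCC1, ERCC2 and POLI scatter around 0.

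The second comparison set cultures after 6 h of recovery against p53 on. DDB2 and POLH fell, 4.23-fold and 4.78-fold relative to p53 on, and the other 8 were not called. In limma 2 of 10 genes were called lower, where 0.285% of all genes were, and 0 of 10 higher, where 0.143% were (0.428% in either direction). At an unadjusted p under 0.05, 4 were lower and 1 was higher, where 5.6% of all genes were lower and 6.66% higher. With the replicate block 4 were called lower (3.39% of all genes) and 1, POLK, higher (3.84% of all genes, and 7.24% in either direction).

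DDB2 differed by -2.08 ± 0.19 between recovery and p53 on (adjusted p = 0.016), with -2.14 in experiment 1 and -2.02 in experiment 2. POLH differed by -2.26 ± 0.21 (adjusted p = 0.016), with -2.0 in experiment 1 and -2.52 in experiment 2. All 12 DDB2 and all 15 POLH probe sets were lower in recovery in both experiments, against 28.1% of the probe sets of all genes. These 2 calls depended on having all 6 arrays: each was lost in all 6 fits that left out 1 array (adjusted p up to 0.199) and in a fit of the p53 on and recovery arrays alone (adjusted p = 0.0668). Their differences in those fits lay between -2.43 and -1.99.

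XPC differed by -1.45 ± 0.27 (adjusted p = 0.0942, or 0.0116 with the block), and XPA by -1.08 ± 0.29 (adjusted p = 0.188, or 0.0241 with the block). Both were lower in recovery in each experiment, with XPC at -1.90 and -1.01 and XPA at -1.50 and -0.66 in experiments 1 and 2. XPC was also called when the mean (adjusted p = 0.045) or a median polish (adjusted p = 0.0431) of its probe sets was used. POLK was higher in recovery by 1.30 ± 0.27 (adjusted p = 0.11, or 0.0139 with the block), at 1.14 in experiment 1 and 1.45 in experiment 2. Combining its probe sets by their mean gave 0.63 and by a median polish 0.57. Of these probe sets, 14 of 21 were higher in both experiments, against 31.6% of the probe sets of all genes. REV3L had 27 of 39 probe sets lower in both experiments, against 28.1%. Its gene value differed by -0.55 with an interval of -1.14 to 0.04 (adjusted p = 0.44).

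**Figure D4:**
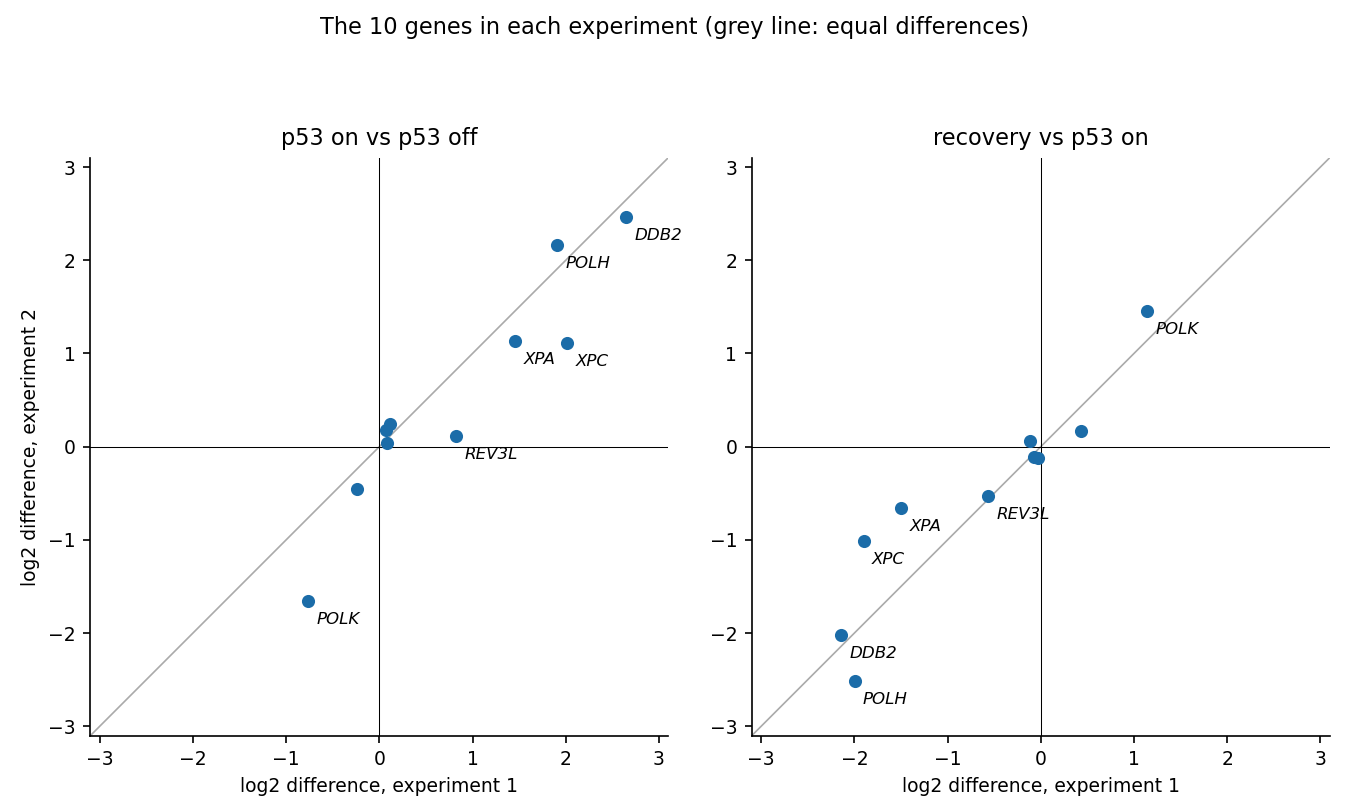
Log2 difference of each gene in experiment 1 (horizontal axis) and experiment 2 (vertical axis) for p53 on against p53 off and recovery against p53 on, with 1 point per gene and a grey line where both are equal. DDB2 and POLH lie near the line, XPC and XPA had the larger difference in experiment 1 in both panels, and POLK in experiment 2.

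In this second comparison, 5 of the 10 genes had recovery arrays wholly below the p53 on arrays, against 18.3% of all genes, and 1 wholly above, against 21.3%. The sign was the same in both experiments for 9 genes, ERCC1 being the exception. The share of all genes was not counted here either. DDB1, ERCC1, ERCC2 and POLI had differences between -0.09 (ERCC2) and 0.30 (POLI), and their intervals all included 0. For POLI the interval ran from -0.60 to 1.20.

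The third comparison set recovery against the p53 off cultures that had never been at 32 °C. In limma 0 of 10 genes were called, with or without the block. Of all genes tested, 0.0285% were called higher and 0% lower, or 0.207% higher and 0.392% lower (0.599% in either direction) with the block. DDB2 was the only one of the 10 with an unadjusted p under 0.05, where 2.88% of all genes were higher and 2.44% lower, at 0.47 ± 0.19 (adjusted p = 0.917, or 0.29 with the block) and with an interval of 0.02 to 0.92. Both DDB2 recovery arrays, at 6.78 and 6.72, stood above both p53 off arrays, at 6.27 and 6.28, and 11 of 12 probe sets were higher in both experiments, against 30.3% of the probe sets of all genes. The difference was 0.50 in experiment 1 and 0.44 in experiment 2.

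POLH ended near its p53 off level, with a difference of -0.22 and an interval of -0.73 to 0.28. With the mean of its probe sets, with brighter probe sets alone or with a median polish, that difference was 0.02 to 0.06, so it has no settled sign. XPC differed by 0.11 (interval -0.54 to 0.75), XPA by 0.22 (interval -0.47 to 0.90) and POLK by 0.09 (interval -0.54 to 0.72). The others lay between -0.08 (REV3L) and 0.10 (DDB1). Recovery arrays lay wholly above p53 off arrays for 1 gene, DDB2, against 20.4% of all genes, and wholly below for 1, POLH, against 14.5%.

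The rest of the pathway, on lists chosen with earlier results known, had medians below 0 in p53 on against p53 off. Of 26 other excision genes, 24 were tested. Their median difference between p53 on and p53 off was -0.28, with 0 called without the block in limma, 1 higher and 3 lower at an unadjusted p under 0.05, and 2 lower with the block. Of all genes, 8.1% were lower at an unadjusted p under 0.05 and 6.28% with the block, so 2 of 24 is near the share of all genes and is no result about the list. The 2 were XRCC1, the scaffold of single-strand break repair, at -0.92 (adjusted p = 0.104, block 0.0126), and LIG3, its partner ligase, at -0.87 (adjusted p = 0.104, block 0.0169).

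Of 17 other translesion genes, 16 were tested, as HLTF was under the filter. Their median was -0.28, and 14 of 16 lay below 0, as did 6732 of the 14026 genes tested. Without the block 0 were called in limma, with 4 lower at an unadjusted p under 0.05, and with it 4 of 16 fell, against the same 8.1% and 6.28% of all genes. ATAD5, which takes PCNA off DNA, had log2 signals of 5.71 and 5.16 in p53 on, against 7.12 and 6.71 in p53 off (-1.48, adjusted p = 0.0617, block 0.0018). POLQ, the polymerase of end joining by microhomology, differed by -1.03 (block adjusted p = 0.0251). PRIMPOL, which restarts synthesis past lesions by priming anew, differed by -1.0 (block adjusted p = 0.0106), and USP1, which removes ubiquitin from PCNA, by -0.93 (block adjusted p = 0.0398). REV1, the scaffold that gathers translesion polymerases, differed by 0.27 with an interval of -0.32 to 0.87.

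The 15 gap-filling genes, which resynthesise the excised patch, had a median of -0.50. Without the block 0 were called in limma, with 6 lower at an unadjusted p under 0.05, and with it 6 of 15 fell, again against 8.1% and 6.28% of all genes, all between -0.96 and -0.69. They were the clamp loader genes RFC1, RFC2, RFC4 and RFC5, the polymerase delta subunit gene POLD3 and the polymerase epsilon subunit gene POLE2. Of the 15, 3 lay above 0. PCNA, the sliding clamp, stood at 8.07 and 8.15 in p53 on, against 8.04 and 8.08 in p53 off. LIG1 had the largest positive difference, 0.55, with 7.57 and 7.30 in p53 on, against 6.98 and 6.79 in p53 off. It was not called (adjusted p = 0.392, block 0.0918). The 9 replication markers measured beside the gap-filling genes, MCM2 to MCM7, CDC6, GINS2 and MKI67, were all lower in p53 on, with a median of -1.14. Of these 9, 3 were called lower, or 8 with the block, against 0.585% and 6.28% of all genes. The part of these markers in the values of the gap-filling genes was not tested.

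In recovery against p53 on, the medians of the 3 lists were 0.21 for excision, 0.24 for translesion and 0.35 for gap filling, against 0.02 for all genes. Without the block 0 of each list were called in limma. At an unadjusted p under 0.05, 4 of 24 excision genes were higher and 1 was lower. For translesion 2 of 16 were higher and for gap filling 4 of 15, where 6.66% of all genes were higher and 5.6% lower. The block called 3.84% of all genes higher and 3.39% lower. With it the transcription-coupled repair gene ERCC6 (1.16, adjusted p = 0.029) and LIG3 (0.72, adjusted p = 0.0431) rose. In the same fit CCNH, the cyclin of the TFIIH kinase, fell by 0.78 on the log2 scale (adjusted p = 0.043). These were 2 higher and 1 lower of 24 excision genes, too few for a result about the list. ATAD5 (1.05) and PRIMPOL (0.74) rose with the block among translesion genes. POLD3 (1.23), RFC4 (1.21), POLE2 (0.82) and RFC2 (0.79) did so among gap-filling genes. Without the block, PRIMPOL and RFC4 had unadjusted p-values of 0.11 and 0.102 in limma.

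**Figure D5:**
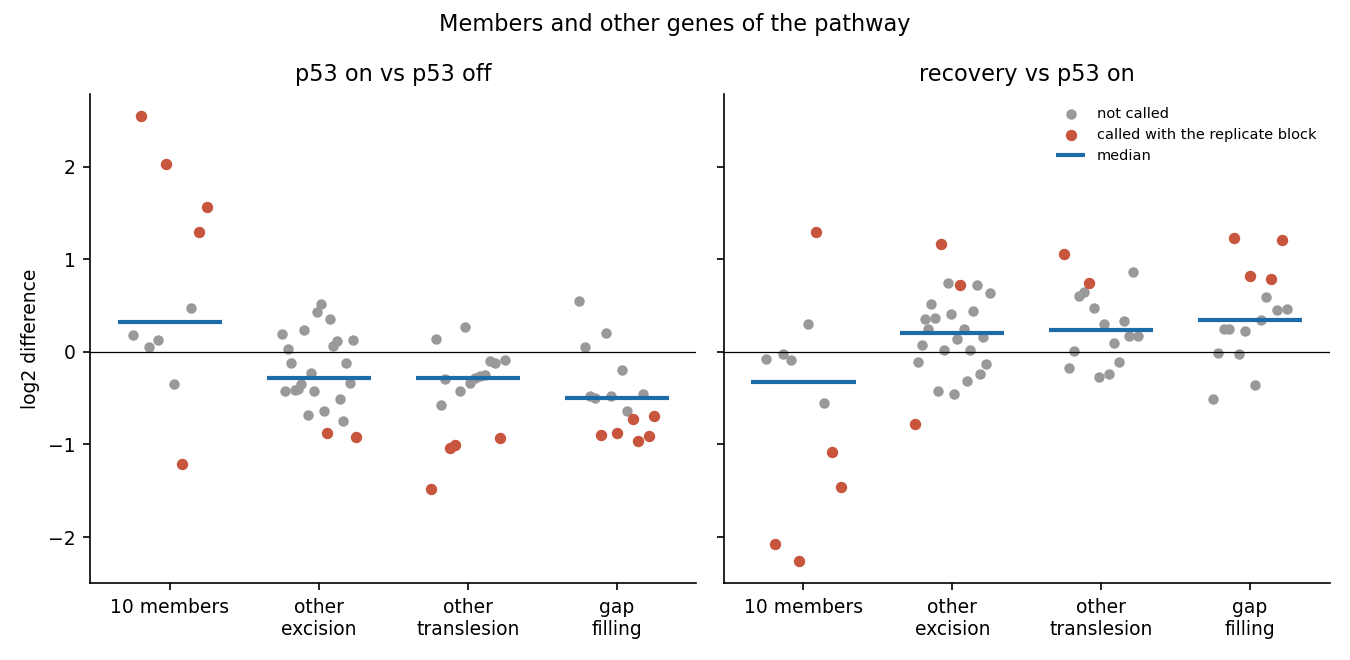
Log2 difference (vertical axis) of the 10 genes and of the tested genes of 3 pathway lists in p53 on against p53 off and in recovery against p53 on; bars are list medians and red points were called with the replicate block. In p53 on the called points of the 3 lists all lie below 0, and 4 of the 5 called among the 10 genes lie above it.

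For the 5 genes whose group means spanned at least 1 log2 unit, the tested genes with the closest pattern over the 6 arrays were found by the root mean square distance between centred log2 signals. For DDB2 they were HEPACAM (distance 0.11), PRDM1 and NEURL2 (3 probe sets, where the median gene had 10). Each had a difference in p53 on of between 2.19 and 2.72. For XPC they were CEP170B, listed under its older symbol KIAA0284 (distance 0.12), TYMSOS, listed as C18orf56 (1 probe set), and SNN (3 probe sets). For POLH they were MAPKBP1 (distance 0.10), CASZ1 and ABCA1. For XPA they were PCBP4 (distance 0.04), TGFBR1 and the cold-inducible CIRBP, none of them called without the block. For POLK they were DEGS1 (distance 0.04), PLCXD1 and C18orf54. With 6 arrays in 3 groups, these distances describe the arrays and carry no test.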

How the data were processed

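The authors deposited log2 signals per exon-level probe set for 6 arrays, judged from their range of -0.85 to 13.14; which program, background step and normalization made them is not given in the sources used here. Column medians lay between 5.24 and 5.31, so no scaling was added. Arrays have no read depth, and precision is limited by how few there are. Of 257430 probe sets, 224320 had 1 gene symbol in GEO's platform annotation and were used. Gene values are medians over probe sets. The dimmest 25% of genes were left out. Differences come from limma 3.58.1 in R 4.3.3 (1 factor of 3 groups, all 6 arrays, eBayes), adjusted by Benjamini-Hochberg over 14026 genes, and the scripts were tested on simulated data. With 2 arrays against 2, an exact permutation test cannot go below p = 0.333.

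The experiment number in the labels was taken to pair arrays; the deviations of same-numbered arrays from the group mean correlated at 0.496 to 0.63 over the genes tested. The members, gene lists and rule for named genes were chosen with earlier results of these data known. That rule named all 10 members, pathway genes called with or without the block (at most 6 per list, comparison and direction) and the 3 closest patterns. The label check, temperature, replication and cell type lists serve only as values beside results. Other members of the pathway lists given as values (PCNA, LIG1, POLE4, REV1) were chosen after their values were seen. Alternatives were the replicate block, other dim filters, other ways to combine probe sets, quantile normalization, fits of 2 groups, an intensity trend and leaving out each array. Promoter sequences and coordinates are from RefSeq (GRCh38.p14), in which all 10 genes matched by symbol.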

Additional observations from a re-analysis of the deposited data

How the results depend on the processing

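For recovery against p53 on, the number of the 10 genes called lower was 2, or 4 with the replicate block, 3 with the mean or a median polish of probe sets, and 0 in a fit of the 2 groups alone, and the number called higher was 0, or 1 with the block. For p53 on against p53 off, the number called lower was 0, or 1 with the block, and the number called higher was 3, or 4 with the block and 2 with no filter on dim genes, with brighter probe sets only or in a fit of the 2 groups alone. Leaving out 1 array, which leaves a group with a lone array that is assumed to vary like the others, gave between 0 and 2 genes called higher in p53 on and 0 called lower in recovery against p53 on. The block changed the calls of XPA and POLK in the first 2 comparisons and of XPC in the second, and no other call among the 10. Signs turned only for differences that were not called. With the mean of probe sets these were ERCC1 in p53 on against p53 off (-0.060), ERCC2 in recovery against p53 on (0.029), and, in recovery against p53 off, ERCC1 (-0.18), POLH (0.024), POLK (-0.12) and POLI (0.21). With brighter probe sets only they were POLH (0.045) and POLI (0.050) in recovery against p53 off, and with a median polish, added after seeing the data, ERCC1 (-0.078), POLH (0.064), POLK (-0.076) and POLI (0.16) there. Leaving out 1 array gave, in p53 on against p53 off, -0.060 to 0.18 for ERCC1 and -0.0055 to 0.26 for ERCC2. In recovery against p53 on it gave -0.18 to 0.020 for DDB1, -0.15 to 0.091 for ERCC1, -0.19 to 0.0055 for ERCC2 and -0.17 to 0.77 for POLI. In recovery against p53 off it gave -0.017 to 0.22 for DDB1, -0.068 to 0.13 for ERCC1, -0.097 to 0.17 for ERCC2, -0.059 to 0.23 for POLK, -0.51 to 0.42 for POLI and -0.26 to 0.099 for REV3L. The cause of these turns was not tested. Across the other alternatives and the fits without 1 array, the differences of DDB2, XPC, XPA, POLH and POLK kept their direction in the first 2 comparisons. Signal over background limits the dimmest probe sets, with 4 of 39 for REV3L, 2 each for POLH, POLK and POLI, and 1 of 12 for ERCC1 under log2 3.45.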
